A study of Mus musculus with 3 samples.

Results

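The nuclear genes of the mitochondrial respiratory chain and ATP synthase were followed in E6.5 mouse embryos with and without the tw18 deletion of chromosome 17. Members were chosen by symbol alone, as the rows of the expression table that begin with Nduf and then a, b, c, s or v, that are Sdha to Sdhd, or that begin with Uqcr, with Cox and a digit, or with Atp5. The rule found 101 of the 23421 genes listed, of which 45 belong to complex I, 4 to complex II, 8 to complex III, 27 to complex IV and 17 to complex V. By their known roles 83 are subunits or tissue isoforms of subunits, and 18 are assembly factors or carry the symbol for another reason. The rule used no measured value.

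The respiratory chain sits in the inner mitochondrial membrane. Complex I takes electrons from NADH and complex II from succinate, ubiquinone carries them to complex III, cytochrome c carries them to complex IV, and oxygen is the final acceptor. Complexes I, III and IV pump protons, and complex V, the ATP synthase, uses the proton gradient to make ATP. Complex II is coded in the nucleus as a whole, whereas the other complexes also hold subunits coded by mitochondrial DNA, which were not analysed here. Cells of the postimplantation epiblast are known for a largely glycolytic metabolism.

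RNA was sequenced from 3 libraries, 1 each of wild type, tw18/+ and tw18/tw18, so no value has a replicate error, no test was possible and no p-value is given. The embryos came from matings of tw18/+ mice, and the labels give the strain as 129/SvEv. The study describes the mutant embryos it stained at this age as slightly younger in stage, and proposes that mixed backgrounds might explain their variable severity. A difference in stage or background cannot be told apart from genotype here. By the study tw18 is a t haplotype, a variant form of part of chromosome 17, and carries a large deletion. The deletion removes, among other genes, Ppp2r1a, which codes for the scaffold subunit of the phosphatase PP2A. Embryos of tw18/+ keep 1 copy of the deleted region. The labels call the tissue epiblast, while the study's methods describe the embryo proper, which also holds visceral endoderm; how many embryos went into a library is not given in the sources used here. Expression is given as FPKM, the fragments of a gene scaled to the length of its transcript and to the fragments of the library, so levels can be compared between genes, but a value depends on what else its library holds. A ratio is the log2 of the FPKM of one library over that of another, without a pseudocount, and is called higher or lower from 1 upwards in size where the higher of the 2 values is at least 1 FPKM.

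Ppp2r1a stood at 146 FPKM in wild type, 81.7 in tw18/+ and 12.8 in tw18/tw18, the order its labels give. By the study's mapping tw18/tw18 embryos lack this gene, and the source of the 12.8 FPKM in their library was not tested. All 10 epiblast markers and all 13 visceral endoderm markers had an FPKM of at least 1 in each library, and the summed levels in the same order were 2165, 2332 and 1113 FPKM for the epiblast list and 930, 913 and 1230 for the visceral endoderm list. Extra-embryonic ectoderm markers summed to 110, 86.6 and 109 FPKM, of which Eomes gave 77.1, 58.0 and 37.0. Of 9 tested, 7 were higher in tw18/tw18 than in wild type by the rule above and 1, Eomes, was lower. Lists of other cell types are given beside the tissue isoforms. Depth was estimated from the spacing of low FPKM values at 1.40 times that of wild type in tw18/+ and 1.39 times in tw18/tw18. Scaling bears on every direction below: giving the libraries equal FPKM sums adds 0.21 to each log2 ratio of tw18/tw18 over wild type and 0.25 over tw18/+, and raises the median of all genes from -0.05 to 0.16 over wild type. In bulk RNA, fewer cells of a type and less RNA per cell cannot be told apart.

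Of the 101 members, 96 had an FPKM of at least 1 in all 3 libraries. The plot of levels shows them by complex. Among subunits of general use, the median level in wild type was 232 FPKM for complex IV, 211 for complex V, 150 for complex III, 68.8 for complex I and 66.1 for complex II. In tw18/+ the medians were 214, 221, 134, 75.4 and 71.9, and in tw18/tw18 they were 235, 178, 116, 61.1 and 62.3. Complexes IV and V were thus at the top in every library and complexes I and II at the bottom, although the ranges of neighbouring complexes overlapped. The order of members was nearly the same in each pair of libraries, with a Spearman rho across the 96 genes, which are not independent replicates, of 0.98 between tw18/tw18 and wild type and 0.99 between tw18/+ and wild type. Summed over all members, the FPKM was 10806 in wild type, 11373 in tw18/+ and 9702 in tw18/tw18, or 2.43%, 2.50% and 2.53% of the summed FPKM of the table.

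**Figure D1:**
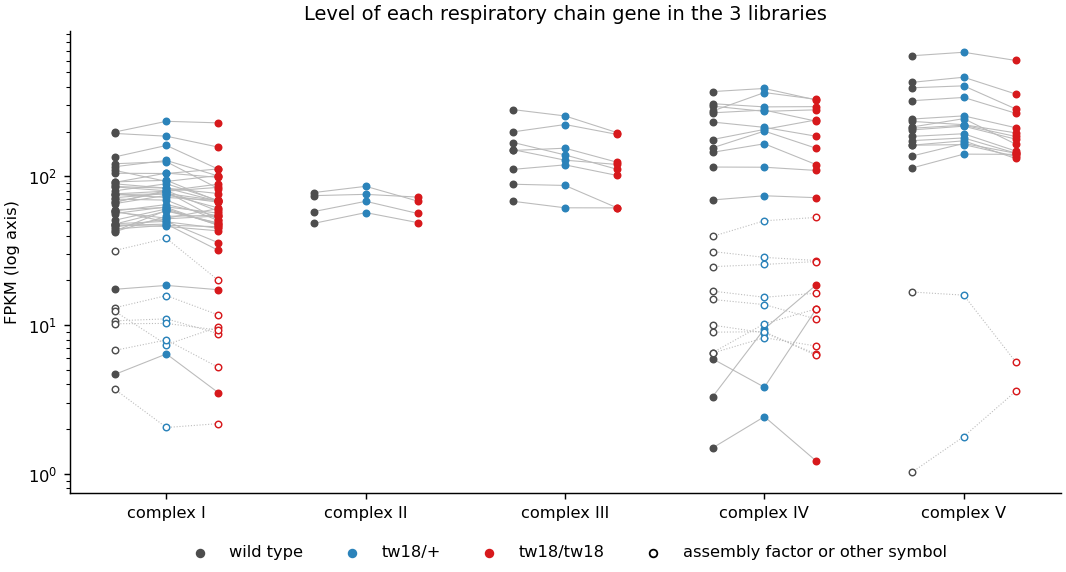
FPKM on a log axis for the 96 members with at least 1 FPKM in all libraries, with 1 point per library and grey lines joining the 3 values of a gene. Filled points are subunits and open points are assembly factors or other symbols. For 81 of the 96 members the highest value is under 1.5 times the lowest, and the steepest lines are those of Cox6b2, Cox7a1, Atp5s and Atp5sl.

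Few members differed by 2-fold between libraries. Between tw18/tw18 and wild type, 3 of 96 members were higher (Cox6b2, Cox7a1 and Atp5s) and 1 was lower (Atp5sl), against 15.1% and 6.94% of all genes tested. Between tw18/+ and wild type, 1 member was higher (Cox6b2) and 0 were lower, against 4.7% and 5.02% of genes. Between tw18/tw18 and tw18/+, 2 were higher (Cox7a1 and Atp5s) and 1 lower (Atp5sl), against 14.9% and 5.65% of genes. The members are abundant, and among the 1507 genes of the table with at least 40 FPKM in every library only 1.59% were higher and 0.863% lower in tw18/tw18 than in wild type. Of the 71 members that reach this level, 0 were called in any of these directions. A low share of calls is therefore shared with other genes of this abundance.

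At the smaller limit of 0.5 on the log2 scale, 4 members were higher and 10 lower in tw18/tw18 than in wild type, against 26.7% and 19.5% of genes. For tw18/+ against wild type these counts were 4 and 3, against 11.7% and 12.3%, and for tw18/tw18 against tw18/+ they were 3 and 12, against 27.1% and 19.3%. The largest of the 3 FPKM values of a member was under 1.5 times the smallest for 81 of 96 members (84.4%), compared with 55.1% of all genes at 1 FPKM or more in every library. At 40 FPKM or more these shares were 95.8% of 71 members and 75.4% of 1507 genes. The counts at 0.5 depend on scaling, since with equal FPKM sums 8 members were higher and 2 lower in tw18/tw18 than in wild type.

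The median member stood at -0.19 in tw18/tw18 over wild type, with quartiles of -0.33 and 0.02, and 70 of 96 members were below 0; with equal FPKM sums the median turned to 0.02 and 41 were below 0. The median of all genes was -0.05, and that of the genes at 40 FPKM or more was -0.26, beside -0.18 for the 71 members of that level. Below 0 were 72.9% of the 96 members, 53.3% of all genes and 74.9% of the genes at 40 FPKM or more. The share of members below 0 was thus close to that of other abundant genes. Over tw18/+ the member median was -0.25 and 77 of 96 were below 0, and with equal sums it was 0.00. In that pair 80.2% of members were below 0, against 53.0% of all genes and 78.2% of the genes at 40 FPKM or more. In tw18/+ over wild type the median was 0.07 and 67 of 96 members were above 0. The genes at 40 FPKM or more had a median of 0.05 in this pair, with 967 of 1507 above 0, beside 0.07 and 50 of 71 for the members of that level, so other abundant genes were shifted to nearly the same extent. Leaving the gene Lars2 (11199, 9689 and 0 FPKM) out of the equal sums gave a member median of -0.01 for tw18/tw18 over wild type and -0.03 over tw18/+. Centred on the median of all genes, the member median was -0.14 over wild type, with 65 of 96 below 0. Over tw18/+ it was -0.20, with 72 of 96 below 0. The median for tw18/tw18 thus turned sign with equal sums, lay near 0 without Lars2 and stayed below 0 with centring. Its sign rests on the scaling chosen.

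**Figure D2:**
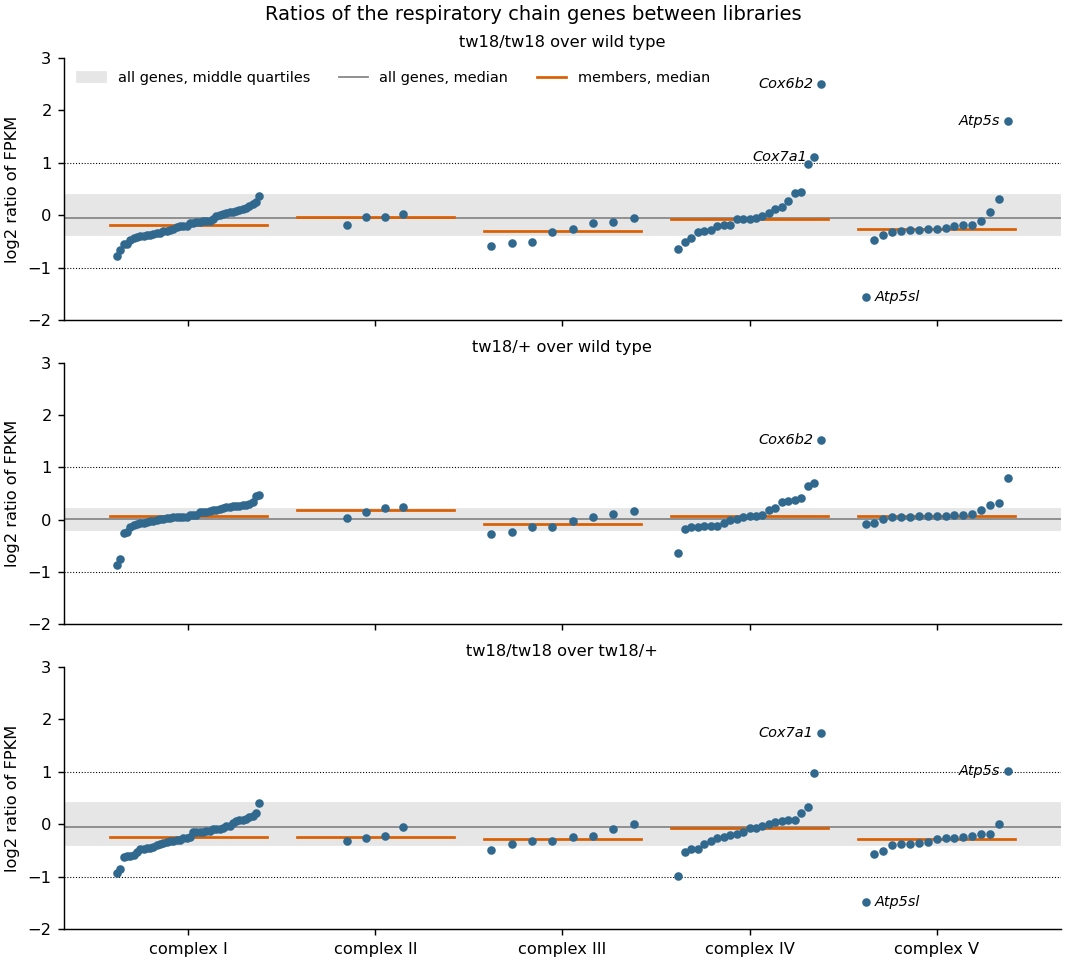
Log2 ratio of FPKM for each of the 96 members, in order of size within its complex, in 3 panels for the 3 pairs of libraries. Orange bars are member medians, the grey band spans the middle quartiles of all genes, and dotted lines mark a log2 ratio of 1 in either direction. The named members are those past these lines, and most others lie inside or near the grey band; with equal FPKM sums all points of the upper panel move up by 0.21 and those of the lower panel by 0.25.

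Complex I was represented by 7 core subunits, 29 accessory subunits, 7 assembly factors, and Ndufa4 with its paralog Ndufa4l2. The core subunits hold the flavin and iron-sulfur clusters that carry electrons. Ndufs1, the largest iron-sulfur subunit, stood at 46.9 FPKM in wild type, 47.8 in tw18/+ and 31.8 in tw18/tw18, the lowest log2 ratio of the core at -0.56 over wild type. Ndufv2 was at 67.2, 78.9 and 51.2 FPKM, and Ndufs8 at 85.6, 83.4 and 68.0. Ndufs3 (67.1, 80.2 and 58.3 FPKM) and Ndufs7 (89.1, 83.4 and 76.7) lay closer to wild type, and Ndufv1, which binds NADH and flavin, was level at 47.7, 58.5 and 48.6. The core was thus lower in tw18/tw18 than in wild type for 6 of 7 subunits, with a median of -0.22, and 5 of 7 stayed below 0 with equal FPKM sums.

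Of the accessory subunits, Ndufb8 had the highest level, at 195 FPKM in wild type, 186 in tw18/+ and 157 in tw18/tw18, and Ndufa11 the lowest of those at 1 FPKM or more, at 17.4, 18.5 and 17.3. Ndufs6, a zinc-binding subunit, was at 122, 125 and 82.9 FPKM, and its log2 ratio of -0.55 was the only one of 28 accessory subunits beyond 0.5. At the other end Ndufb2 was at 42.5, 53.9 and 54.8 FPKM, a log2 ratio of 0.37. Among accessory subunits 17 of 28 were below wild type in tw18/tw18, with a median of -0.11. Ndufa4, which biochemical work now places in complex IV, was the most abundant gene with an Nduf symbol, at 199, 235 and 229 FPKM.

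Ndufs5 was the exception in complex I, listed at under 0.001 FPKM in each library, although 1 fragment would give about 0.128 FPKM in wild type and 0.0915 in tw18/+. The processed pseudogene BC002163, on chromosome 16, stood at 47.9, 65.7 and 55.9 FPKM, a level within the range of complex I subunits. Of the 50 bp words of BC002163, 72.6% occur in transcripts of Ndufs5, and 21.7% of those of Ndufs5 occur in BC002163. The annotation used for the FPKM values and how it treated these reads are not given in the sources used here, so the level of Ndufs5 cannot be read from the table.

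The 7 assembly factors of complex I with an Ndufaf symbol were low, from 3.71 to 31.7 FPKM in wild type. All 7 were lower in tw18/tw18 than in wild type, with a median of -0.35, and 5 of 7 stayed lower with equal FPKM sums. Of 6 complex I assembly factors with other symbols, 3 were below wild type in tw18/tw18, with a median of 0.0005. Ndufaf2 was at 31.7 FPKM in wild type, 38.4 in tw18/+ and 20.02 in tw18/tw18. Ndufaf5, which hydroxylates an arginine of Ndufs7, was at 3.71, 2.05 and 2.18, and Ndufaf3 at 12.4, 7.39 and 9.73, so in both the tw18/+ library was the lowest. Ndufaf1 (13.1, 15.8 and 11.7 FPKM), Ndufaf4 (10.7, 11.0 and 8.77), Ndufaf6 (6.76, 7.96 and 5.21) and Ndufaf7 (10.2, 10.3 and 9.26) had log2 ratios between -0.38 and -0.14 in tw18/tw18 over wild type.

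Complex II was the most even of the complexes. Sdha, the flavoprotein that oxidises succinate, was at 48.4 FPKM in wild type, 57.1 in tw18/+ and 48.9 in tw18/tw18. Sdhb, the iron-sulfur subunit, was at 58.0, 68.0 and 56.4. The membrane anchors Sdhc and Sdhd were at 74.3, 75.7 and 72.6 FPKM and at 77.9, 85.8 and 68.3 FPKM. All 4 were highest in tw18/+, and the log2 ratios of tw18/tw18 over wild type lay between -0.19 and 0.02. With equal FPKM sums 0 of 4 were below wild type in tw18/tw18 and 1 of 4 in tw18/+.

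Complex III had the lowest median ratio of the complexes in tw18/tw18 over wild type, at -0.30 with all 8 subunits below 0. With equal FPKM sums 5 of 8 stayed below, at a median of -0.08. The genes at 40 FPKM or more had a median of -0.26 in this pair as deposited. Over tw18/+ the complex III median was -0.27, beside -0.29 for complex V subunits. In tw18/+ over wild type the complex III median was -0.08, with 5 of 8 below 0. Uqcrb, which binds ubiquinone, was at 169 FPKM in wild type, 139 in tw18/+ and 112 in tw18/tw18, a log2 ratio of -0.60. Uqcrfs1, the Rieske iron-sulfur protein, was at 88.6, 86.9 and 61.6 FPKM, and Uqcrh, the hinge protein that contacts cytochrome c1, at 281, 255 and 197. The large core proteins Uqcrc1 (112, 120 and 102 FPKM) and Uqcrc2 (68.0, 61.5 and 61.4) differed less. Uqcr10 (149, 155 and 125 FPKM), Uqcrq (151, 129 and 120) and Uqcr11 (199, 223 and 192) completed the set. Cytochrome c1 itself, Cyc1, whose symbol falls outside the rule, was at 124, 116 and 93.2 FPKM. The 25.4% of 50 bp words that Uqcrb shares with other genes leaves its level less certain than that of the others. The share of complex III in the members' summed FPKM was 11.3% in wild type, 10.3% in tw18/+ and 10% in tw18/tw18, a measure that scaling does not touch.

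Complex V was the most uniform of the larger complexes. All 15 of its subunits had 3 values within 1.5-fold of each other, and the middle quartiles of tw18/tw18 over wild type ran from -0.29 to -0.19 around a median of -0.26. Relative to wild type 13 of 15 subunits were lower in tw18/tw18, with 9 of 15 at equal FPKM sums and 12 of 15 without Lars2 in the sums. Relative to tw18/+ all 15 were lower, with 11 of 15 at equal sums and 12 of 15 without Lars2. Of the F1 head, Atp5b, the catalytic beta subunit, was the most abundant of all members at 647 FPKM in wild type, 683 in tw18/+ and 602 in tw18/tw18. Atp5a1, the alpha subunit, was at 323, 340 and 266 FPKM and Atp5c1, the gamma subunit that turns inside the head, at 215, 244 and 165. The small delta and epsilon subunits, Atp5d (137, 167 and 143 FPKM) and Atp5e (114, 141 and 141), were the pair that stood above wild type in tw18/tw18. The 7 genes of the stalks and membrane part, such as Atp5o (174, 181 and 143 FPKM) and Atp5l (211, 221 and 186), had log2 ratios within the narrow span of -0.33 to -0.18.

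The c-ring of complex V is built from 1 protein that 3 genes code for, which differ in the targeting peptide that is cut off. Their summed level was 1058 FPKM in wild type, 1093 in tw18/+ and 839 in tw18/tw18. Atp5g1 gave 22.2%, 20.4% and 23.4% of the sum, Atp5g2 gave 37.3%, 37.2% and 33.9%, and Atp5g3 gave 40.6%, 42.5% and 42.7%. The order of the genes was therefore the same in each library. Of the 50 bp words of Atp5g2, 38.3% occur in other genes, so its share is the least certain.

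Atp5s and Atp5sl carry complex V symbols but are not among its standard subunits; Atp5s is known as coupling factor B, and Atp5sl, now named Dmac2, acts in the assembly of the membrane arm of complex I. Atp5s (chr12:69724950-69744660, plus strand) was at 1.02 FPKM in wild type, 1.78 in tw18/+ and 3.58 in tw18/tw18. This is about 22, 53 and 107 fragments, and the log2 ratio of tw18/tw18 over wild type was 1.81. Atp5sl (chr7:25619414-25625551, plus strand) was at 16.7, 15.9 and 5.68 FPKM, or about 550, 734 and 261 fragments, and its log2 ratio was -1.56. The low library was thus wild type for Atp5s and tw18/tw18 for Atp5sl, and the 95% counting intervals of tw18/tw18 and wild type were apart for both. Positions are from the GENCODE M21 annotation of GRCm38, the build to which the reads were mapped.

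Complex IV held 10 common subunits, 7 tissue isoforms, the supercomplex factor Cox7a2l and 9 assembly factors. The common subunits were level, with a median of -0.08 in tw18/tw18 over wild type, 8 of 10 below 0, and 2 of 10 below 0 with equal FPKM sums. Cox7c was the highest in wild type at 372 FPKM, with 390 in tw18/+ and 326 in tw18/tw18, and Cox7b the lowest at 116, 115 and 110. Cox4i1, which joins the mitochondrial subunit Cox1 early in assembly, was at 275, 366 and 330 FPKM. Cox6b1, which faces the intermembrane space, was at 177, 207 and 240 FPKM, a log2 ratio of 0.44 that was the largest of the common subunits. Cox5b was the lowest by ratio at 232, 214 and 186 FPKM. The share of complex IV in the members' summed FPKM was 23.9% in wild type, 24.3% in tw18/+ and 26.3% in tw18/tw18.

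The tissue isoforms replace a common subunit in given organs. Cox6b2 had the widest range of the 96 members over the libraries, followed by Atp5s, Cox7a1 and Atp5sl. Cox6b2, known from testis (chr7:4751792-4753094, minus strand), was at 3.30 FPKM in wild type, 9.43 in tw18/+ and 18.6 in tw18/tw18, about 21, 85 and 167 fragments. Its log2 ratio over wild type was 2.50 in tw18/tw18 and 1.52 in tw18/+, and its 95% counting intervals in the 3 libraries did not overlap. It gave 1.83%, 4.36% and 7.21% of the summed level of Cox6b1 and Cox6b2. Cox7a1, known from heart and skeletal muscle (chr7:30184144-30186078, plus strand), was at 5.94, 3.83 and 12.8 FPKM, about 29, 26 and 88 fragments, with a log2 ratio of 1.11 over wild type and 1.75 over tw18/+. It gave 3.93%, 2.26% and 9.65% of the sum with Cox7a2, which was at 145, 166 and 120 FPKM. The tw18/tw18 library was the highest in both pairs, while tw18/+ lay between the others for Cox6b2 and lowest for Cox7a1, where its interval overlapped that of wild type.

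The other isoforms were near or at 0. Cox4i2, known from lung, was at 1.49 FPKM in wild type, 2.43 in tw18/+ and 1.22 in tw18/tw18, with overlapping counting intervals. Cox7b2 was at 0.667 and 0.287 FPKM in wild type and tw18/+, about 4 and 2 fragments, and listed at 0 in tw18/tw18. Cox6a2, Cox8b and Cox8c were listed at 0 in all 3 libraries, beside 297, 274 and 280 FPKM for Cox6a1 and 308, 293 and 295 for Cox8a. Whether an entry of 0 means absence was not tested. Lars2 was also listed at 0 in tw18/tw18, beside 11199 FPKM in wild type and 9689 in tw18/+, for a reason not examined here. Of complex I, Ndufa4l2, which is induced by hypoxia, was at 4.66, 6.40 and 3.52 FPKM and gave 2.29%, 2.66% and 1.51% of its sum with Ndufa4.

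**Figure D3:**
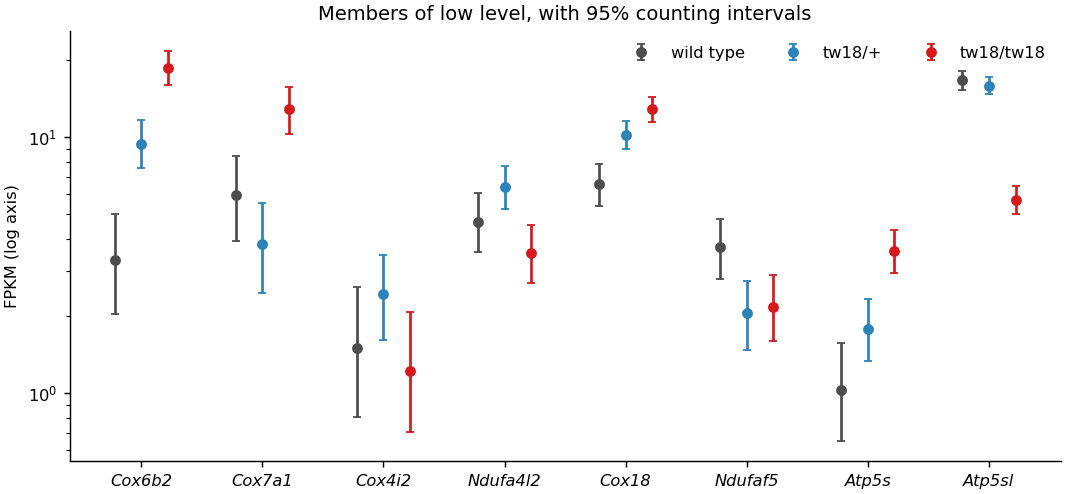
FPKM on a log axis for 8 members of low level in the 3 libraries, with error bars for the 95% Poisson interval of the estimated fragment number, which covers counting error only and not the spread between embryos. Cox6b2 and Atp5s were highest in tw18/tw18 and lowest in wild type, Cox7a1 was highest in tw18/tw18, and Atp5sl was lowest there.

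Several lists of markers of other cell types summed to more in tw18/tw18 than in wild type. The summed level of 10 stroma and fibroblast markers was 99.9 FPKM in wild type, 89.3 in tw18/+ and 361 in tw18/tw18, and 6 of 10 were higher by the rule above. The 9 pericyte and smooth muscle markers summed to 54.8, 78.0 and 236 FPKM, of which Des gave 45.5, 65.9 and 201. Of 5 tested, 4 were higher and 1 was lower. The 10 endothelial markers summed to 44.8, 30.6 and 105, with 6 of 9 tested higher. Decidual markers other than Prl8a2 summed to 131, 129 and 312 FPKM, and Prl8a2 itself was at 1504, 155 and 377. No marker of these 4 lists was listed at 0 in all libraries. Erythroid markers summed to 133, 154 and 364 FPKM, with the embryonic globins Hba-x, Hbb-bh1 and Hbb-y at 0 throughout. Of 6 erythroid markers tested, 4 were higher and 1 was lower. Trophoblast giant cell markers summed to 155, 89.7 and 311, with Ctsq and Prl3b1 at 0, and of 4 tested 2 were higher and 1 was lower. Immune cell markers summed to 21.4, 11.8 and 31.9 FPKM, with 2 of 4 tested higher and 0 lower. The part of these cells in the isoform levels was not tested.

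The start regions of both pairs are shown because the isoform and its common partner had unlike levels from related genes. The letters are the 250 bases before the transcript start from RefSeq on GRCm38.p6, 5′ to 3′ on the strand of the gene, and capitals mark CG dinucleotides. Cox6b1 lies at chr7:30626115-30626364 on the minus strand and Cox6b2 at chr7:4753095-4753344 on the minus strand.
Cox6b1: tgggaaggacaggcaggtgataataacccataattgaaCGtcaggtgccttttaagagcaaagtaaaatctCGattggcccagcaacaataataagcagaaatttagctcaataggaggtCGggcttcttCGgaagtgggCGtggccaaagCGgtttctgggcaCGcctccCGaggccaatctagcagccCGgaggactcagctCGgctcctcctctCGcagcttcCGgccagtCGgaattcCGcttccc
Cox6b2: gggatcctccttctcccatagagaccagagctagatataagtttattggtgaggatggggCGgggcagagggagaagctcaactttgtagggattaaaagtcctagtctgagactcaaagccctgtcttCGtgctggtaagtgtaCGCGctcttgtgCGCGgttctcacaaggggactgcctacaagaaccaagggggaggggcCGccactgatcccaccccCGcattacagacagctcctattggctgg
Cox7a2 lies at chr9:79759854-79760103 on the minus strand and Cox7a1 at chr7:30183921-30184170 on the plus strand.
Cox7a2: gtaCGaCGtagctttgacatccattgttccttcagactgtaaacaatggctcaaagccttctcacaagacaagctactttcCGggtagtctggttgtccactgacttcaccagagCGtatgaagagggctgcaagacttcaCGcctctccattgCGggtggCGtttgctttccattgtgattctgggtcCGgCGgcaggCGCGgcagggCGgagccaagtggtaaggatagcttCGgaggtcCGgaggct
Cox7a1: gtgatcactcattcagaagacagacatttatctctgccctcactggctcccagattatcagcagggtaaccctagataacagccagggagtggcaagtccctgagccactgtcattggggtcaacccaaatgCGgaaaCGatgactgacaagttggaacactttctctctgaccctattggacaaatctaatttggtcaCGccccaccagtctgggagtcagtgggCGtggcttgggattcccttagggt
Cox6b1 held 14 CG dinucleotides and Cox6b2 held 8, and Cox7a2 held 14 and Cox7a1 held 4. The median was 15 over the 83 members with a window, 16 over genes of the table at 1 FPKM or more, and 6 over all genes with a window. The 4 tissue isoforms with a window had a median of 6.

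Among the assembly factors of complex IV, Cox17, the copper chaperone of the mitochondria, had the highest level at 39.5 FPKM in wild type, 50.3 in tw18/+ and 53.0 in tw18/tw18. Cox16 had the lowest wild-type level at 6.49, 8.23 and 7.23 FPKM, and 54.2% of its 50 bp words occur in Gm20498, an annotated gene that spans Cox16 and its neighbour Synj2bp. Cox18, which inserts the mitochondrial subunit Cox2 into the membrane, was at 6.54, 10.2 and 12.9 FPKM, a log2 ratio of 0.98 in tw18/tw18 over wild type. Cox11, which delivers copper to Cox1, was at 10.001, 8.88 and 6.39 FPKM, and Cox15, of heme A synthesis, at 8.96, 9.04 and 6.26. Cox10, the other enzyme of heme A synthesis, was at 14.9, 13.7 and 11.0. The factors thus went both ways, with 5 of 9 below wild type in tw18/tw18 and a median of -0.05.

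The members lie on 19 chromosomes, and 0 of them lie in the tw18 deletion. On chromosome 17 there are 7 members, all distal to it. Ndufb10 (chr17:24722060-24724478), the nearest, was at 65.6 FPKM in wild type, 74.6 in tw18/+ and 67.1 in tw18/tw18. Ndufv3 (91.8, 94.2 and 67.9 FPKM) and Ndufa7 (135, 162 and 112) lie at chr17:31520115-31531331 and chr17:33824572-33838317. The others, Ndufa11, Ndufv2, Ndufaf7 and Cox7a2l, have been given above except for Cox7a2l, which was at 69.5, 74.1 and 72.0 FPKM. The log2 ratios of the 7 in tw18/tw18 over wild type lay between -0.44 and 0.05, and 0 were called. Whether the variant sequence of the haplotype reaches these members was not tested.

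The promoters of respiratory chain genes are known for binding sites of NRF1 and of ETS factors such as GABP. In the 250 bases before the start, the NRF1 motif, whose letters stand in capitals in the last 2 windows printed here, was found on either strand in 14 of 83 members (16.9%), against 4.23% of all 27025 genes with a window, 5.84% of protein-coding genes and 10.02% of the genes of the table at 1 FPKM or more. The ETS motif CCGGAAG was found on either strand in 19.3% of members, against 7.83%, 10.2% and 16.9% of these sets. TATAAA was found on either strand in 8.43% of members, against 14.3%, 13.7% and 7.46%. Members and other expressed genes were thus close for the ETS motif and the TATA box. By complex the NRF1 motif was found in 7 of 39 members of complex I, 2 of 3 of complex II, 0 of 5 of complex III, 1 of 20 of complex IV and 4 of 16 of complex V. In 0 member windows did matches to different motifs overlap, and a match describes letters only.

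Sdha (chr13:74350241-74350490, minus strand) and Ndufb4 (chr16:37654369-37654618, minus strand) are shown because each held 3 NRF1 matches, which are in capitals.
Sdha: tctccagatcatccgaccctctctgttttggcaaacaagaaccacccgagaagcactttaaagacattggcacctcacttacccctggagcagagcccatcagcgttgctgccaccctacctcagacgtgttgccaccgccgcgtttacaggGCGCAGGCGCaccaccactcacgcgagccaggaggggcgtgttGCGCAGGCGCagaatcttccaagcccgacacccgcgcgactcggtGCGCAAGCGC
Ndufb4: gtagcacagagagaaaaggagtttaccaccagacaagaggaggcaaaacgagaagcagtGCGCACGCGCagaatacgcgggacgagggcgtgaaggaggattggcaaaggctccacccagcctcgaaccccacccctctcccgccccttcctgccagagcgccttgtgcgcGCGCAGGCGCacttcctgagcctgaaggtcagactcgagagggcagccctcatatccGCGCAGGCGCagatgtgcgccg
Sdha was level between tw18/tw18 and wild type, as given above, and Ndufb4 was at 110 FPKM in wild type, 92.5 in tw18/+ and 101 in tw18/tw18. Nrf1 itself was at 15.2, 15.5 and 10.9 FPKM. Gabpa, which codes for the DNA-binding subunit of GABP, was at 32.9, 31.8 and 26.7 FPKM.

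**Figure D4:**
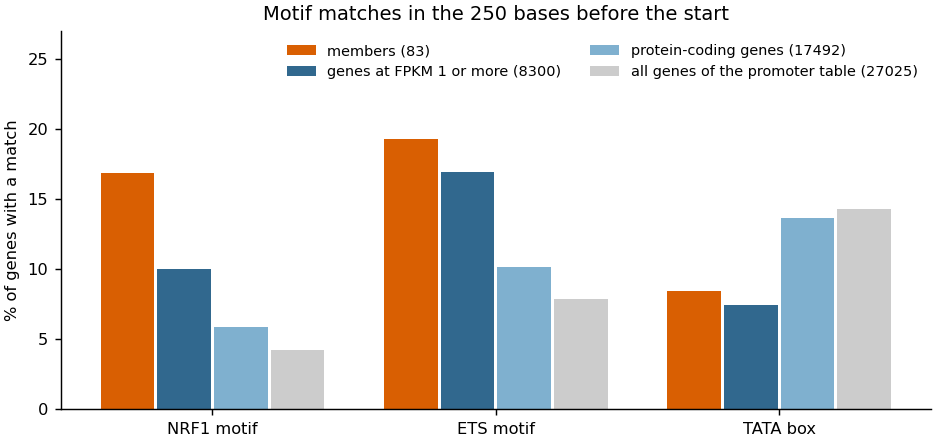
Percent of genes with at least 1 match to each motif in the 250 bases before the transcript start, for the members and 3 wider sets, with the number of genes of each set in the legend. The NRF1 motif was found in 16.9% of members and 10.02% of expressed genes, while the ETS and TATA bars of these sets were close.

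Other mitochondrial gene groups give a scale for these values, and the plot of gene groups sets them side by side. The 76 mitochondrial ribosomal protein genes, which make the subunits coded by mitochondrial DNA, had a median of -0.34 in tw18/tw18 over wild type, with 0 higher and 3 lower, and 28 were lower by 0.5. The 75 cytosolic ribosomal protein genes had a median of -0.40. Both medians were below that of the members, and with equal FPKM sums they were -0.13 and -0.19. The 14 citric acid cycle enzymes had a median of -0.13, with 0 called; with equal sums the sign turned, at 0.08.

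Of 32 other respiratory genes, namely electron carriers and assembly factors with other symbols, 31 were tested and 0 were higher and 1 lower in tw18/tw18. The lower one was Uqcc, an assembly factor of complex III, at 11.9 FPKM in wild type, 11.0 in tw18/+ and 5.02 in tw18/tw18, a log2 ratio of -1.24. Cycs, cytochrome c, was at 93.0, 92.5 and 75.4 FPKM. Of 16 regulators of mitochondrial biogenesis, 15 were tested, with 1 higher and 0 lower. The higher one was Esrra, a nuclear receptor that acts on respiratory genes, at 2.58, 5.88 and 9.91 FPKM, a log2 ratio of 1.94. The median of the 15 regulators over wild type was -0.30, with 12 of 15 below 0. Over tw18/+ their median was -0.38, with 1 higher and 2 lower. Ppargc1a, a coactivator of this receptor, was listed at 0 in wild type and stood at under 0.1 FPKM in both other libraries, and Ppargc1b was at 2.81, 1.28 and 3.49. Tfam, which packages mitochondrial DNA, was at 22.3, 24.4 and 15.4 FPKM.

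**Figure D5:**
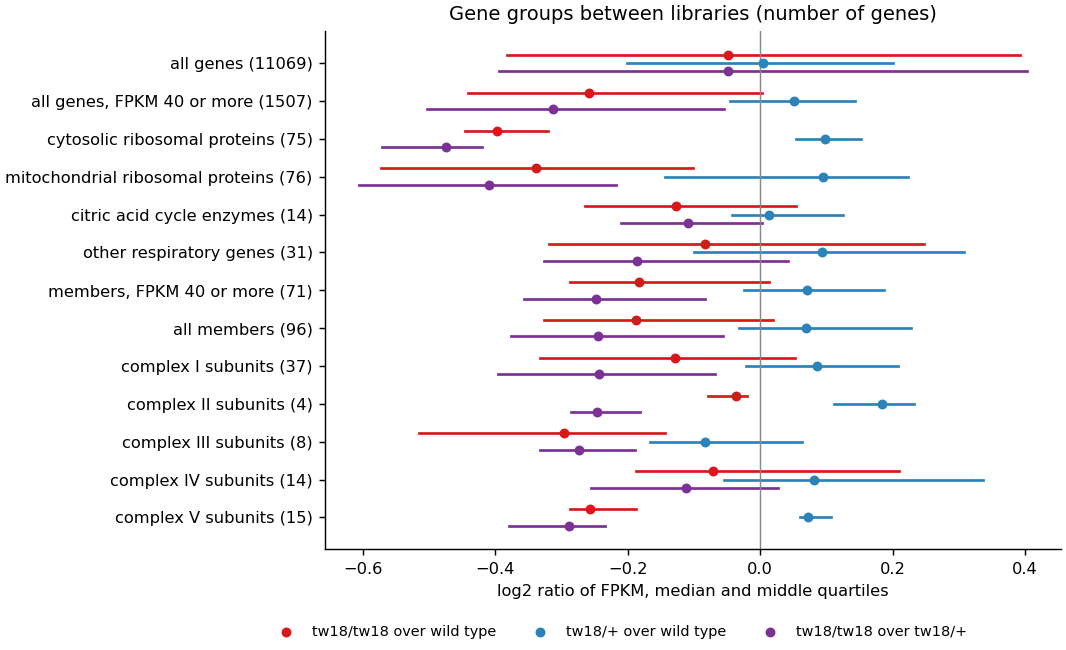
Median log2 ratio of FPKM (points) and middle quartiles (lines) of gene groups for the 3 pairs of libraries, over genes with at least 1 FPKM in every library. The members lie beside other genes of 40 FPKM or more and above both ribosomal protein groups in the pairs with tw18/tw18; with equal FPKM sums the tw18/tw18 values move up by 0.21 over wild type and 0.25 over tw18/+.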

How the data were processed

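The members and gene lists were chosen with earlier results of these data known. Per the labels and the series' design text, the libraries were strand-specific and made from total RNA depleted of rRNA, with the TotalScript kit. The authors sequenced 50 bp paired-end reads, ran TopHat against mm10 (GRCm38), and deposited Cuffdiff's FPKM values as 1 table of 23421 genes by 3 libraries. The submitters' processing notes also list Bowtie 1.0.0 and Cufflinks 2.2.1. The annotation and the library normalization are not given in the sources used here. Because FPKM is relative to the library, an abundant RNA such as Lars2 (11199, 9689 and 0 FPKM) can move every other value.

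Ratios and counts used pandas 2.3.3 and numpy 2.4.6 in Python 3.11.15, counting intervals used scipy 1.17.1, and matplotlib 3.10.9 drew the plots. A gene was tested in a pair when its higher FPKM was at least 1, and medians used genes at 1 FPKM or more in all 3 libraries. The call rule was tested on simulated data. The number of fragments behind a value is an estimate from the spacing of low FPKM values, 76.1% to 84.4% of which lay within 0.2 of a whole number, and its 95% Poisson intervals are for counting error only, since PCR copies are not independent molecules.

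The genes named are members past a log2 ratio of 1 in any pair, members at 0 in some libraries, the highest and lowest in each role, the core, complex II and F1 subunits, isoform pairs, members on chromosome 17 and genes of other lists past 1 in tw18/tw18 over wild type. Some genes that this rule or a marker list would name are not reported here. Other genes, such as Cox18 and Ndufs6, were named after their values were seen. Positions came from GENCODE M21, which held 100 of 101 members by symbol and Atp5sl as Dmac2, and promoter windows from RefSeq, which held 83. Alternatives were pseudocounts of 0.1 and 1, other filters, subunits only, and 3 scalings.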

Additional observations from a re-analysis of the deposited data

How the results depend on the processing

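No paired analysis was possible because each genotype has 1 library, and no library could be left out. With equal FPKM sums the member median of tw18/tw18 turned from -0.19 to 0.0244 over wild type and from -0.25 to 0.0015 over tw18/+, and without Lars2 in the sums it was -0.0125 and -0.0296. At 0.5, the 4 higher and 10 lower members over wild type became 8 and 2, or 7 and 2 without Lars2, and the 3 and 12 over tw18/+ became 5 and 4 in both. Without a filter on low values 2 members were lower in tw18/tw18 than in wild type, 1 in tw18/+ than in wild type, and 2 in tw18/tw18 than in tw18/+, Cox7b2 being the addition. Among subunits only, 0 were lower in tw18/tw18 in either pair and 1 was higher over tw18/+. A pseudocount of 1 or 0.1, or a minimum of 5 FPKM, also left 1 higher over tw18/+, since Atp5s no longer passed. With a pseudocount of 1, Cox7a1 was at 0.995 over wild type. Centring on the median of all genes changed no count by over 1.5 times. The small number of fragments in wild type limits Cox6b2, Cox7a1 and Atp5s.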
